A study of Mus musculus with 13 samples.

Results

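Expression of Mup9, Mup16, Mup17 and Mup22, members of the mouse major urinary protein family, was followed through 10 mammary libraries gene by gene and as a sum. These genes are 4 of 38279 gene symbols in the count table and 4 of its 33 Mup symbols, and they were chosen by their low counts in tumours, so the tumour-gland difference is described here without a test. Tumours of the mammary gland from Cre-positive mice gave 6 libraries, and whole mammary gland tissue from wild-type mice, which are Cre-negative, gave 4. Mating took place at 12 weeks in both kinds of mice and in the Cre-positive animals induces excision of Fbxw7, the gene for the substrate-binding subunit of an SCF ubiquitin ligase. Tumours 1 to 6 were taken at 25, 32, 39, 19, 53 and 25 weeks of age, glands 1 to 3 at 20 weeks and gland 4 at 40 weeks. Both kinds of mice were watched for tumours, and the labels name no promoter for Cre. Age among the glands goes with the style of sample name, since gland 4 is named like the tumours and unlike glands 1 to 3, and the effects of age and of any run behind that naming cannot be told apart. A further 3 samples of purified epithelium were not analysed here.

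Major urinary proteins are small secreted lipocalins, barrel-shaped carriers that hold pheromones and other hydrophobic molecules and leave the body with mouse urine. The genes lie in a dense cluster of recent duplicates, and the liver is their best-known source, where growth hormone, sex steroids, glucocorticoids and thyroid hormone control them. Mouse exocrine tissues, among them lacrimal, salivary and mammary glands, are also known to make Mup transcripts. No separate function is assigned here to any of the 4 genes, whose products are close relatives of one another.

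Fbxw7 itself was at 33.3, 47.3, 15.1, 27.8, 28.6 and 33.1 CPM (counts relative to library size, scaled by the TMM method) in tumours 1 to 6, against 14.3, 17.8, 18.4 and 83.6 CPM in glands 1 to 4. The groups overlapped, and whole-gene counts include any exons that excision leaves, so they do not check the labels. Total counts ranged from 34865913 to 48325044 in the tumours and from 13723065 to 48353114 in the glands. Luminal epithelial markers were present in every library, with 10 genes summing to 1752 to 4084 CPM in the tumours and 458 to 766 CPM in the glands. Several libraries stood apart. Salivary gland markers took 51.5% of all counts in tumour 1 and 19.3% in tumour 6, against at most 0.0388% in the other tumours and 0.0521% in the glands. Mitochondrial transcripts took 37.5% of counts in gland 4 and 8.07% to 14.02% in every other library, and 8 skeletal muscle markers summed to 116221 CPM in gland 4 and to 36.1 to 11659 CPM in glands 1 to 3.

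The 4 transcripts share most of their sequence, which limits how far their counts can be read apart. Over the longest coding transcript of each gene, Mup16 and Mup17 were 98.7% identical, Mup16 and Mup22 98.8% and Mup17 and Mup22 98.4%. Mup9 was the most distant of the 4, at 94.1% to 94.7% to the others, and was closer to Mup8 (99.1%) and Mup7 (98.9%). Mup22 had none of its 831 windows of 31 bases to itself, since each of them also occurs in the transcript of another gene. Unique windows made up 3.68% of Mup16, 5.12% of Mup9 and 13.8% of Mup17. The counts of single members are therefore uncertain, Mup22 most of all, and the sum is less exposed to the way reads were divided. The sum is not closed either, because Mup19 is 99.3% identical to Mup22 and 99.4% identical to Mup16.

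**Figure D1:**
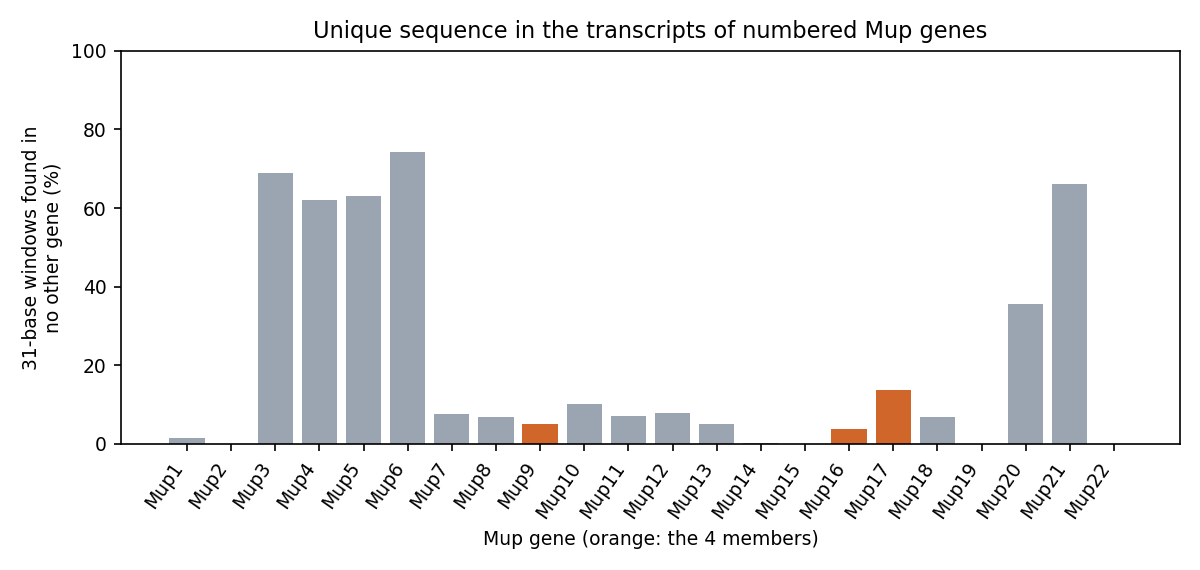
Share of the 31-base windows (%) in the longest coding transcript of each numbered Mup gene that occur in no other gene, with the 4 members in orange. Mup22 is at 0, Mup16 at 3.68%, Mup9 at 5.12% and Mup17 at 13.8%, whereas Mup3 and Mup5 reach 69.0% and 63.0%.

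The proximal promoters are shown because the members moved together and because near-identity extends upstream of the genes. RefSeq promoter entries (GRCm38.p6) were found for 2 of the 4 members, both on the minus strand of chromosome 4: Mup9 at chr4:60421953-60422202 and Mup17 at chr4:61595833-61596082. Each sequence gives the 250 bases before the annotated start, 5′ to 3′, with the TATA box in capitals.
Mup9: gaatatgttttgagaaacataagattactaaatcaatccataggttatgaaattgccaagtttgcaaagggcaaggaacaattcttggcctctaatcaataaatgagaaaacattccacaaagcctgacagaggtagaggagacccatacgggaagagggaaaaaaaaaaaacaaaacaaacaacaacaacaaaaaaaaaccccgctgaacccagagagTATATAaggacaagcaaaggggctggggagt
Mup17: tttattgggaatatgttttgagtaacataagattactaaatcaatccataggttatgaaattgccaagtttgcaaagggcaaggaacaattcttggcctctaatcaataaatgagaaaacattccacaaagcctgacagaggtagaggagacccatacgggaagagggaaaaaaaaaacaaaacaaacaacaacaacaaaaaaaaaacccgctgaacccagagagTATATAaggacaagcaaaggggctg
Aligned to each other, the 2 sequences were 98.4% identical, with 4 of 244 positions differing or gapped. The Mup9 promoter was 98.0% identical to that of Mup19 and 80.1% to that of Mup3, a family member whose transcript is far more distinct. The TATA box letters TATANA, searched on both strands, were found in 11 of 14 Mup promoters and in 22.6% of all 32851 promoters. None of the 14 held TTGCNNAA (C/EBP, in 9.56% of all promoters), TTCNNNGAA (STAT, 7.02%), the DR1 element of PPAR (0.0335%) or the full palindromic glucocorticoid response element (0.00913%), each searched on both strands. The last pair are rare everywhere, and no match says only that these letters are not in this window.

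All 4 genes were at or near 0 in the tumours, abundant in glands 1 to 3 and low in gland 4. Mup22, the most abundant, had 0, 47, 0, 0, 12 and 0 counts in tumours 1 to 6, against 30401, 162303, 52279 and 126 counts in glands 1 to 4. Scaled for depth, Mup22 was at 0 to 0.711 CPM in the tumours and at 868, 2534, 2911 and 8.01 CPM in the glands. Every tumour was below every gland, and gland 4 stood nearer to the tumours than to the other glands. In these bulk libraries fewer cells of a type and less RNA per cell cannot be told apart.

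Mup9 had 27, 0, 0, 10, 7 and 23 counts in tumours 1 to 6, against 4074, 22566, 7075 and 44 counts in glands 1 to 4. In CPM it was at 1.85, 0, 0, 0.173, 0.130 and 0.641 in the tumours and at 116, 352, 394 and 2.80 in the glands. Of the 4 members it came closest to an overlap between the groups, with gland 4 only 1.51-fold above tumour 1. Mup16 had 0, 4, 0, 3, 0 and 0 counts in the tumours, against 722, 4299, 1689 and 17 counts in the glands, or 0 to 0.0605 CPM and 20.6, 67.1, 94.1 and 1.08 CPM. Mup17 had 2, 15, 0, 0, 5 and 24 counts in the tumours, against 500, 2959, 973 and 56 counts in the glands, or 0 to 0.669 CPM and 14.3, 46.2, 54.2 and 3.56 CPM. It was the member that differed least between gland 4 and the other glands, by 10.7-fold.

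The sum of the 4 genes was 1.99, 0.999, 0, 0.225, 0.447 and 1.31 CPM in tumours 1 to 6, against 1019, 2999, 3454 and 15.5 CPM in glands 1 to 4. It averaged 0.828 ± 0.748 CPM in the tumours (SD, n = 6) and 1872 ± 1628 CPM in the glands (SD, n = 4), a log2 ratio of means of -11.14. For the single genes this ratio was -8.86 (Mup9), -11.25 (Mup16), -7.30 (Mup17) and -13.31 (Mup22). Tumour 3 had 0 of 45505300 counts for the sum, which allows up to 0.0742 CPM at a limit of 3 counts. All 4 genes passed the filter on low counts, through the glands alone. Set against gland 4 by itself, the tumour mean of the sum was lower by a log2 ratio of -4.22, and gland 4 was 7.77-fold above the highest tumour. All 4 members had every tumour below every gland, which held for 7.5% of the 20101 genes tested.

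**Figure D2:**
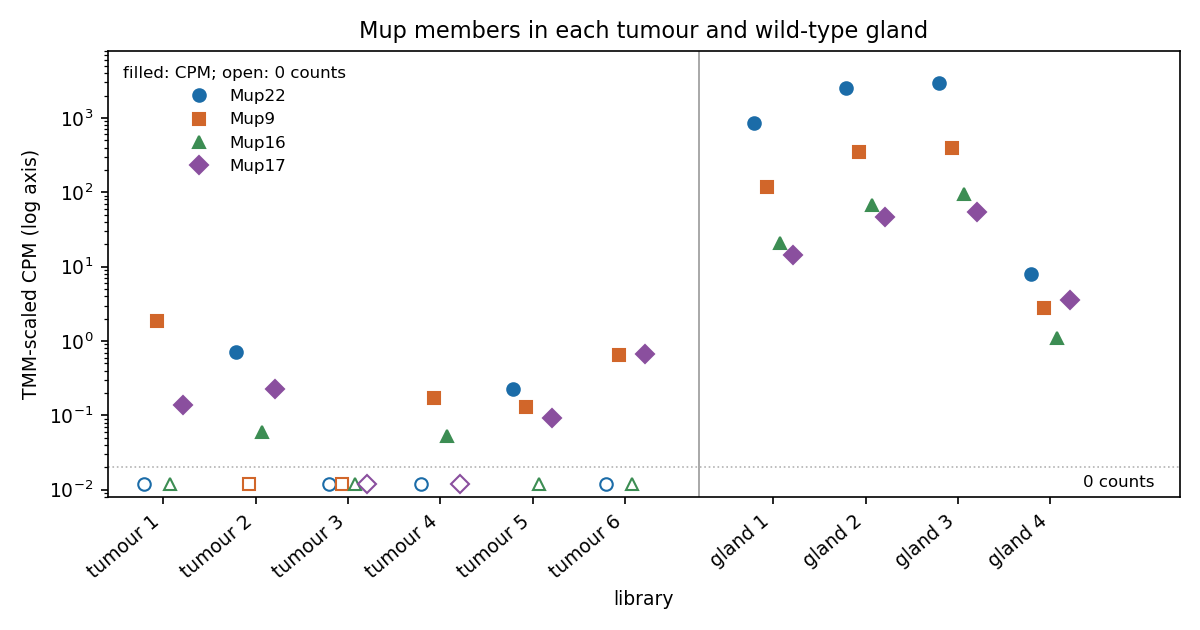
TMM-scaled CPM (log axis) of Mup22, Mup9, Mup16 and Mup17 in each of the 6 tumours (left) and 4 wild-type glands (right), 1 point per gene and library, with open points for 0 counts. The tumours lie at or under 1.85 CPM, glands 1 to 3 between 14.3 and 2911 CPM, and gland 4 between 1.08 and 8.01 CPM.

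Glands 1 to 3 differed from each other in level and hardly in composition. The sum was 2.94-fold higher in gland 2 and 3.39-fold higher in gland 3 than in gland 1. Mup22 nevertheless took 85.2%, 84.5% and 84.3% of the 4-gene counts in glands 1 to 3, and Mup9 took 11.4%, 11.7% and 11.4%. Mup16 took 2.02%, 2.24% and 2.72%, and Mup17 took 1.40%, 1.54% and 1.57%. The widest Wilson 95% interval among these shares, for Mup22 in gland 1, ran from 84.8% to 85.5% and covers counting error only. Gland 4, with 243 counts in all, had another composition: 51.9% Mup22 (45.6% to 58.1%), 23.0% Mup17 (18.2% to 28.7%), 18.1% Mup9 (13.8% to 23.4%) and 7.0% Mup16 (4.41% to 10.92%). Per kilobase of transcript, the levels in glands 1 to 3 ran in the order Mup22, Mup9, Mup16 and Mup17, for example 3381, 433, 101 and 58.5 CPM per kilobase in gland 3. In gland 4 the order was Mup22, Mup17, Mup9 and Mup16, at 9.31, 3.84, 3.08 and 1.17 CPM per kilobase.

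Some markers of other cell types were, like the sum, highest in glands 2 and 3 and lowest in gland 4, and others were not. Milk and T cell markers did not share its separation of tumours from glands. The part of any of these markers in the sum was not tested. Of 15 liver markers, only Cyp2e1, an ethanol-metabolising cytochrome also made by adipocytes, was abundant in the glands. Without it the other 14 summed to 0.297 to 23.4 CPM in the tumours and 2.35 to 49.2 CPM in the glands. Of the 15 markers, 10 stayed under 1 CPM in every gland. Alb, the serum albumin gene, made up most of that sum in glands 1 to 3, at 0 to 0.206 CPM in the tumours and 13.2, 31.5, 44.0 and 0.0636 CPM in glands 1 to 4. It follows the order of the Mup sum among glands 1 to 3, at a far lower level. Alb, Cyp2e1, Serpina3k and Hpd, 4 of the 15, were higher in each of glands 1 to 3 than in gland 4 and every tumour. This order was found for 5.73% of all 38279 symbols. Serpina3k was at 0.970, 1.33, 1.17 and 0 CPM and Hpd at 3.82, 1.30, 1.45 and 0 CPM in glands 1 to 4. The liver genes Apoa1, Apoa2 and Apob were at most 0.0557 CPM in any gland, Apoa2 at 0 in all 4. The 6 T cell markers summed to 3.69 to 62.6 CPM in the tumours and to 13.98, 449, 363 and 1.84 CPM in glands 1 to 4, so they too were highest in glands 2 and 3, which had the highest Mup sum. The 7 milk markers were at 437 to 25505 CPM in the tumours and at 80.9, 733, 433 and 26.6 CPM in glands 1 to 4, where Glycam1, a mucin-like glycoprotein of milk and of lymph node vessels, made up most of the sum in glands 2 and 3, at 693 and 395 CPM. Muscle markers went the other way among the glands, being highest in gland 4 and lowest in gland 3. So did the sum of the 6 brown fat markers, at 726, 148, 93.2 and 1811 CPM in glands 1 to 4. It was 4.87 to 181 CPM in the tumours. Single brown fat markers were mixed, and most of the sum in gland 4 came from Cox8b (960 CPM) and Cox7a1 (558 CPM). Elovl3 (9.73 CPM) and Ucp1 (222 CPM, against 211 CPM in gland 1) were also highest in gland 4. Cidea was highest in gland 1 (145 CPM), and Dio2 was lowest in gland 4 (8.20 CPM).

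**Figure D3:**
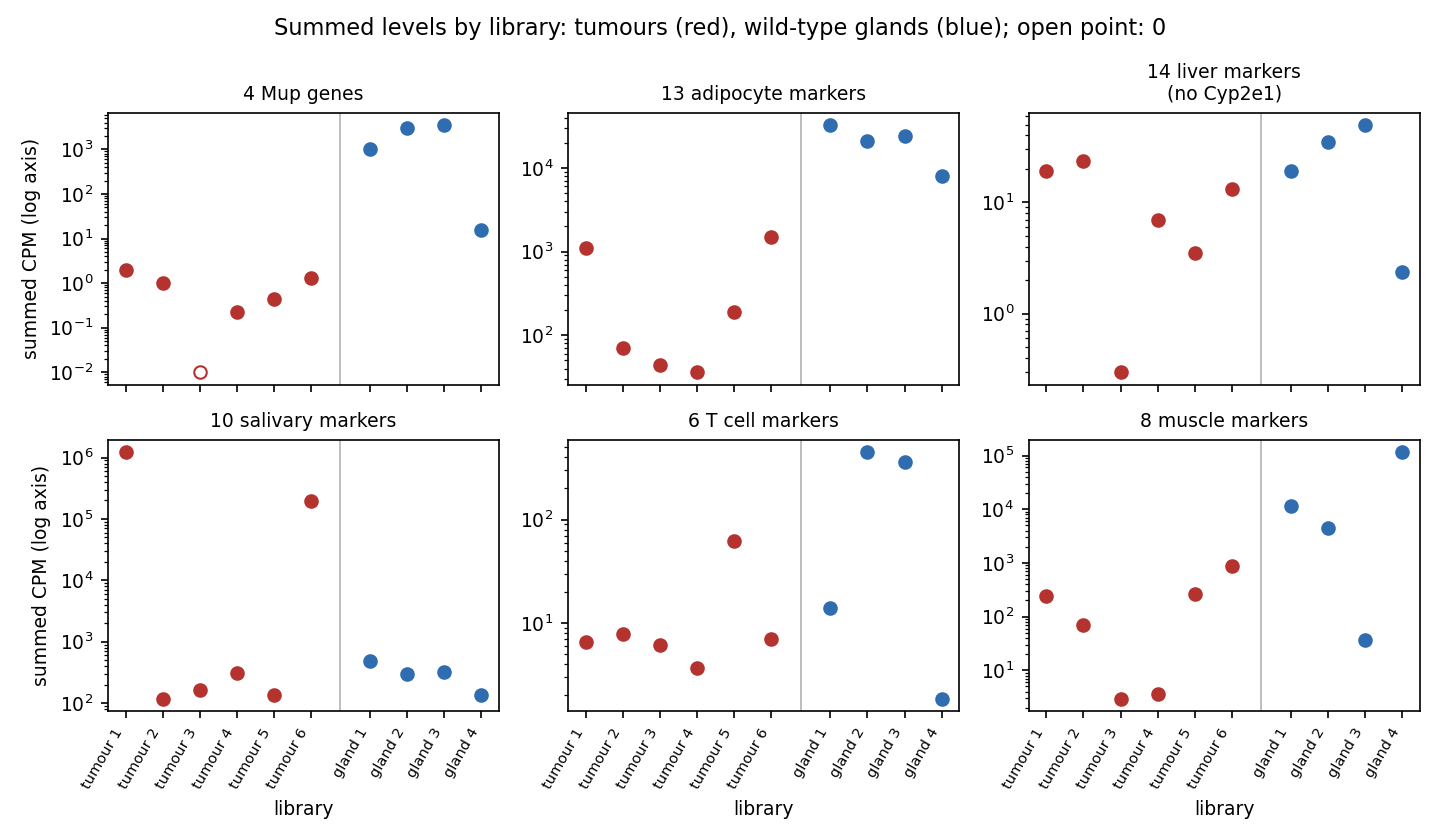
Summed CPM (log axes) of the 4 Mup genes and of 5 marker lists in each tumour (red, left) and wild-type gland (blue, right), 1 point per library, with an open point for 0. The Mup sum is 15.5 CPM in gland 4 and 1019 to 3454 CPM in glands 1 to 3, where the 14 liver markers without Cyp2e1 stay at or under 49.2 CPM.

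Whether the Mup sum follows adipocyte content was asked with Adipoq, the adiponectin gene, and Plin1, the coat protein of fat droplets. Adipoq was at 31.3, 0.272, 0.247, 0.243, 2.07 and 75.7 CPM in tumours 1 to 6, against 2351, 1331, 1438 and 221 CPM in glands 1 to 4. Plin1 was at 17.6, 1.36, 0.890, 1.27, 1.17 and 32.5 CPM in the tumours, against 1188, 701, 623 and 71.8 CPM in the glands. Tumours 1 and 6 thus kept the most adipocyte transcripts of the tumours, and gland 4 had the fewest of the glands. The adipocyte score, the mean log2(CPM + 0.5) of both genes, ran from 0.03 to 5.65 in the tumours and from 6.98 to 10.71 in the glands. The groups overlapped neither in this score nor in the sum of the 4 Mup genes. A correlation over all libraries pooled is therefore no test of the relation. The sum over all Mup symbols did overlap, at 216 and 112 CPM in tumours 1 and 6 against 55.4 CPM in gland 4.

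Within groups, libraries with a higher adipocyte score tended to have a higher Mup sum. After both values were centred on their group means, Pearson's r was 0.59 over the 10 libraries (exact permutation within groups, two-sided p = 0.0190, adjusted p = 0.0380 over 2 relations) and Spearman's rho was 0.76 (exact p = 0.0115, adjusted p = 0.0230). With the sum taken over all Mup symbols, to which Mup5 adds most in tumours 1 and 6, r was 0.90 and rho 0.93 (exact permutation p = 0.0115 for r). The relation of the 4-gene sum rests on few libraries. Without tumours 1 and 6, the 2 farthest from the median score, r was 0.87 with an exact permutation p of 0.191, and without gland 4 it was 0.57 with p = 0.159. Without all 3 of these libraries r was -0.31 (exact permutation p = 0.5, an alternative added after the data were seen). In the 6 tumours alone r was 0.78 (exact p = 0.0889, adjusted p = 0.0889) and rho was 0.89 (exact p = 0.0333, adjusted p = 0.0333), and r was 0.35 (exact p = 0.583) without tumours 1 and 6. Tumours 1 and 6 are also the libraries with the salivary transcripts, and gland 4 the one with the most mitochondrial and muscle transcripts.

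The 2 measures differed in size and order. From glands 1 to 3 to gland 4 the mean Mup sum differed by 161-fold. The sum over all Mup symbols differed by 53.7-fold, and that over the symbols outside the 4 by 12.2-fold. Adipoq differed by 7.71-fold, Plin1 by 11.7-fold and the sum of 13 adipocyte markers by 3.27-fold. Most single markers differed by more than that last value, and Lpl and Cfd by less. Lpl made up 3611 of the 7909 CPM of the 13-marker sum in gland 4. Lep was at 346, 297, 436 and 4.64 CPM in glands 1 to 4. Among glands 1 to 3 the order was opposite, since gland 1 had the lowest Mup sum and the highest score, with 1.77-fold and 1.63-fold more Adipoq than glands 2 and 3. Per 100 Adipoq reads there were 6.36, 367, 0, 92.9, 21.6 and 1.73 reads of the 4 Mup genes in tumours 1 to 6, against 43.3, 225, 240 and 6.98 in glands 1 to 4. The ratio in tumour 2 rests on 18 Adipoq reads and that in tumour 4 on 14. Tumour 6 had 75.7 CPM of Adipoq and 1.31 CPM of the Mup sum, whereas gland 4 had 221 CPM and 15.5 CPM, a difference of 2.92-fold in Adipoq and 11.8-fold in the Mup sum.

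**Figure D4:**
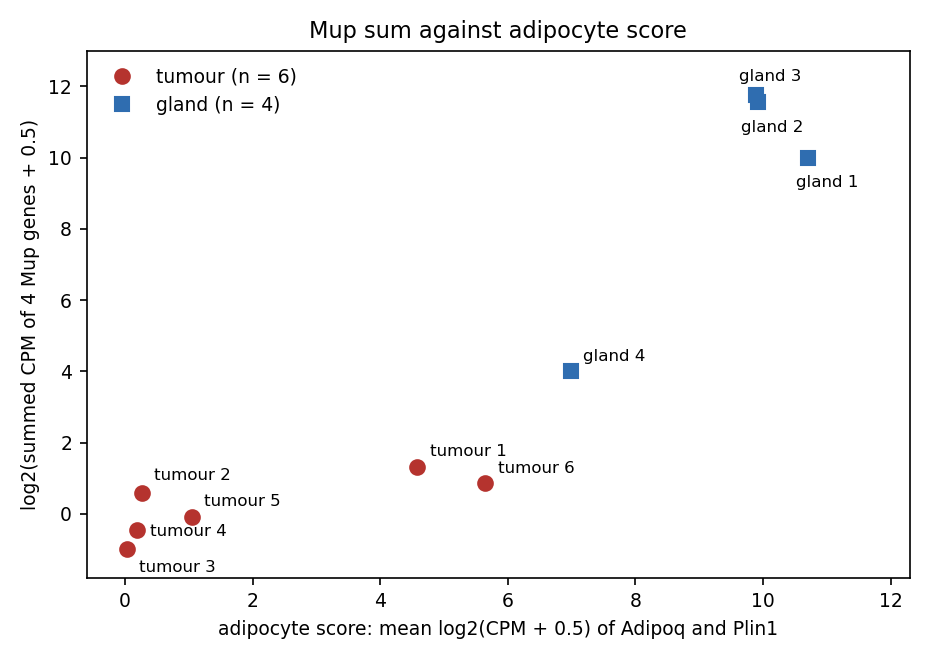
Summed level of the 4 Mup genes as log2(CPM + 0.5) against the adipocyte score, the mean log2(CPM + 0.5) of Adipoq and Plin1, for 6 tumours (red circles) and 4 wild-type glands (blue squares). The groups do not overlap on either axis, tumours 1 and 6 and gland 4 lie between the extremes, and gland 1 has the highest score with a lower Mup sum than glands 2 and 3.

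In a model across all genes with group and adipocyte score as terms, the slopes of the 4 members were mixed. Mup9 had a slope of 1.01 ± 0.30 log2 units per unit of score (SE, edgeR, adjusted p = 0.143), Mup17 0.57 ± 0.23 (adjusted p = 0.264), Mup16 0.14 ± 0.54 (adjusted p = 0.923) and Mup22 -0.39 ± 0.62 (adjusted p = 0.797). No member passed the threshold in edgeR, where 2 of 4 had an unadjusted p below 0.05, as had 16.1% of all genes, and DESeq2 called Mup9 (adjusted p = 0.00174), as it did 7.1% of all genes. Across all 20101 genes 1.67% were called, 1.61% with a positive and 0.0597% with a negative slope, and 8 of the 11 adipocyte markers that are not in the score were called, each with a positive slope. Rbp4, the retinol carrier made by liver and adipocytes, was called with a slope of 0.93 ± 0.09 (adjusted p = 0.00198). Mup19 was the only 1 of 7 other Mup genes tested that was called, at 3.54 ± 0.59 (adjusted p = 0.0367), and its call was lost in 8 of 13 alternatives (adjusted p = 0.0121 to 0.576). Its slope was 1.72 without gland 4. Its only tumour counts were 82 in tumour 6, without which it did not pass the filter on low counts. Without tumours 1 and 6 no gene of any kind was called with a positive or a negative slope by edgeR, with 3147 genes at an unadjusted p below 0.05.

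Of the 29 other Mup symbols, 18 numbered genes and 11 pseudogenes, 7 passed the filter on low counts. In the tumour-gland comparison 5 of these 7 were lower in tumours by edgeR, where 15.1% of all genes were called, 8.19% lower and 6.89% higher. Mup3 passed the filter through the glands alone, as did Mup1 when tumour 2 was left out. Mup14 and Mup19 passed it only with tumour 2 and with tumour 6. This count and the adjusted p-values of these genes are therefore a description and support nothing about the family. Mup3 had 4, 0, 0, 0, 2 and 4 counts in tumours 1 to 6, against 508, 988, 359 and 25 counts in glands 1 to 4 (log2 difference -7.92 ± 1.25, SE, adjusted p = 0.00464), and it is the family member of these 5 with the most unique sequence. Mup19 had 82 counts in tumour 6 and 0 in the other tumours, against 4147, 30090, 7860 and 0 counts in the glands (-9.39 ± 2.32, adjusted p = 0.0238). Mup14 (-7.46 ± 1.84, adjusted p = 0.0234), Mup7 (-5.06 ± 1.27, adjusted p = 0.0249) and Mup1 (-3.94 ± 1.18, adjusted p = 0.0446) were the others. Only Mup3 kept its call when any 1 library was left out: the count was 1 of the 8 then tested without gland 1 or gland 2, 2 of 7 without gland 3, 3 of 5 without tumour 2, 3 of 6 without tumour 6 and 13 of 17 without gland 4. Near-identity with the members means that part of these counts may be reads of Mup22 or Mup9, or the reverse.

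The rest of the family was mixed. Of the 18 other numbered genes, 11 were higher in each of glands 1 to 3 than in gland 4 and every tumour, as were 5.73% of all 38279 symbols, and 17 were higher in gland 3 than in gland 1, as were 34.9% of all symbols. The other 7, Mup1, Mup4, Mup5, Mup6, Mup7, Mup15 and Mup20, did not have the first of these orders. Both shares are over all symbols with any count, including those that failed the filter on low counts. Near-identical genes share reads, so many of the 18 are not independent of each other or of the members. Mup5, which is 85.5% to 89.7% identical to the members and 63.0% unique, had 3074, 233, 0, 19, 0 and 3697 counts in tumours 1 to 6, against 111, 519, 193 and 0 counts in the glands. It was highest in tumours 1 and 6, the libraries with salivary transcripts, at 211 and 103 CPM, and did not pass the test (log2 difference 3.26 ± 2.26, adjusted p = 0.323, edgeR), with -2.54 when those tumours were left out. Mup20 did not pass either (-1.13 ± 1.31, adjusted p = 0.561). Mup7 had 491 counts in gland 4, 56.4% of all Mup counts there (53.1% to 59.6%, Wilson 95% interval), against 1.42%, 1.38% and 1.75% of them in glands 1 to 3. The 4 members together held 0.919%, 12.1%, 0%, 29.5%, 29.6% and 1.17% of all Mup counts in tumours 1 to 6, of which tumour 3 had a single one, against 84.1%, 83.0%, 84.1% and 27.9% in glands 1 to 4.

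**Figure D5:**
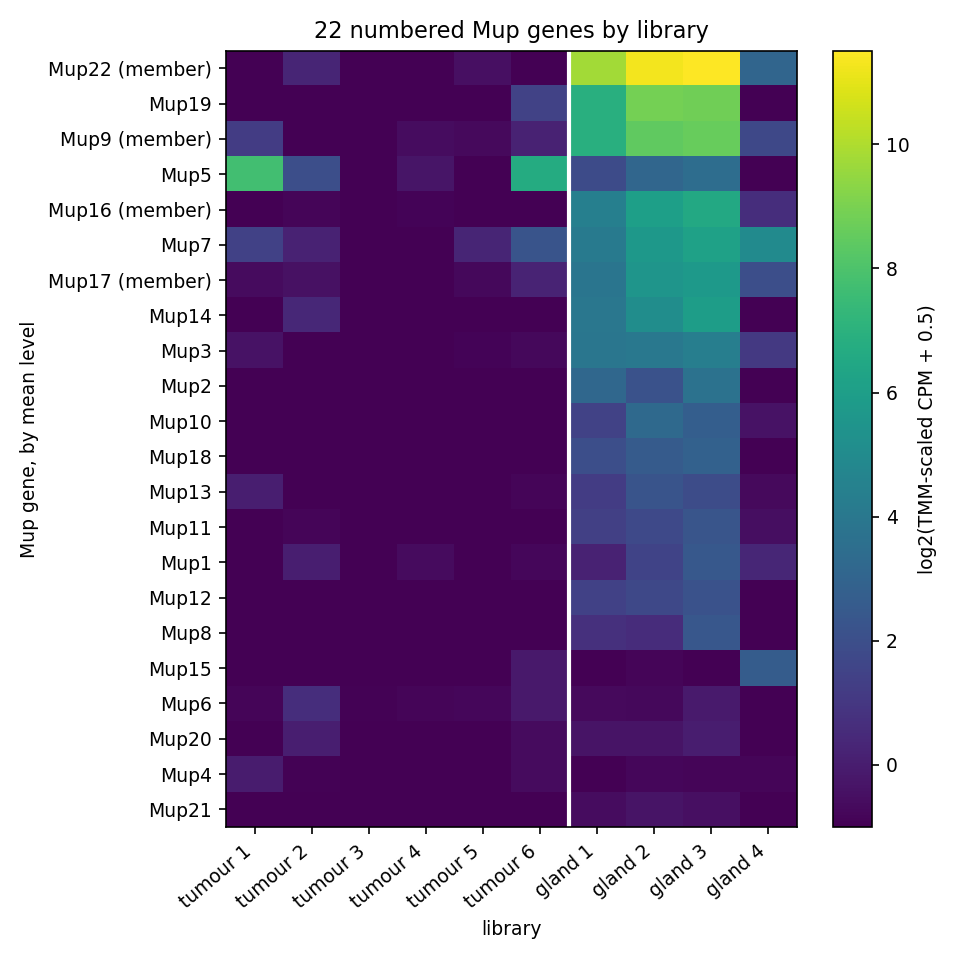
Level of the 22 numbered Mup genes, as log2(TMM-scaled CPM + 0.5) in colour, in each tumour (left of the white line) and wild-type gland (right), with genes ordered by mean level. Most genes are brightest in glands 1 to 3, while Mup5 is brightest in tumours 1 and 6 (211 and 103 CPM) and Mup7 is the highest Mup gene in gland 4.

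A list of 16 genes covered hormone and transcription factor pathways that act on Mup genes in mouse liver. Of these, 9 were lower in the tumours by edgeR and 7 did not pass, where 8.19% of all genes were lower. The median log2 difference was -1.61 over the 16 against 0.17 over all genes tested. Zhx2, a homeobox factor known in mouse liver as a repressor of the alpha-fetoprotein gene that also acts on Mup genes, was at 1.71, 1.86, 0.445, 0.607, 0.335 and 1.17 CPM in tumours 1 to 6, against 30.99, 26.4, 24.2 and 2.29 CPM in glands 1 to 4 (log2 difference -4.37 ± 0.72, SE, adjusted p = 0.00554, edgeR). Like the members it was low in gland 4, without an overlap between the groups. Nr3c1, the glucocorticoid receptor, averaged 76.8 ± 18.3 CPM in the tumours (SD, n = 6) and 206 ± 14.6 CPM in the glands (SD, n = 4), and differed by -1.43 ± 0.25 (adjusted p = 0.00740, edgeR). Stat5b, which carries the growth hormone signal in liver, averaged 19.5 ± 7.95 CPM and 77.6 ± 38.8 CPM and differed by -1.99 ± 0.38 (adjusted p = 0.00995). Nr3c1 and Stat5b were not low in gland 4, where Nr3c1 was at 198 CPM and Stat5b at 135 CPM, the highest of the 4 glands. Of the 16, however, 5 were higher in each of glands 1 to 3 than in gland 4 and every tumour. That order held for 5.73% of all 38279 symbols. Among the 5 were Zhx2, Ghr (738, 604, 583 and 219 CPM in glands 1 to 4) and Cebpa (774, 417, 410 and 66.8 CPM). Without gland 1, 5 of the 16 were lower, where 623 of 21114 genes were lower. On the adipocyte slope none of the 16 was called by edgeR, with 4 at an unadjusted p below 0.05, and DESeq2 called 1, against 16.1% and 7.1% of all genes.

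Other lipocalins were mixed. On the adipocyte slope 3 of the 7 tested, Rbp4, Orm1 and Orm2, were called positive by edgeR, where 1.61% of all genes were. The same 3, of 10 in the count table, were higher in each of glands 1 to 3 than in gland 4 and every tumour. That order was found for 5.73% of all 38279 symbols. Of 15 listed, 7 were tested, and 2 were lower and 1 higher in the tumours, where 8.19% and 6.89% of all genes were. Rbp4 was at 0.0742 to 6.22 CPM in the tumours, against 455, 241, 259 and 58.4 CPM in glands 1 to 4 (log2 difference -6.95 ± 1.31, SE, adjusted p = 0.00924, edgeR). Orm1, an acute-phase serum carrier, was at 0.0151 to 13.02 CPM in the tumours, against 203, 161, 200 and 26.9 CPM in the glands (-5.50 ± 1.45, adjusted p = 0.0297), and lost its call without tumour 4, tumour 5, gland 1, gland 2 or gland 3. Lcn2, which binds bacterial iron carriers, was higher, at 119 to 4416 CPM in the tumours and 23.5 to 47.2 CPM in the glands (5.48 ± 1.17, adjusted p = 0.0141). A second lipocalin was called higher without tumour 1 or tumour 5.

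The genes whose levels followed the Mup sum most closely were listed by Pearson's r over the 10 libraries among 16010 genes with a mean of at least 1 CPM, as a description in which the tumour-gland split is shared by all. Pon1, the serum paraoxonase gene, came first (r = 0.98), ahead of Orm3, Vstm2b, Dlc1 and Zhx2 (r = 0.98 each), Gbp11, Marc1, B430219N15Rik, Sik2 and 2610016A17Rik (r = 0.97 to 0.98). Pon1 was at 0 to 0.418 CPM in the tumours, against 69.6, 43.5, 42.0 and 1.27 CPM in glands 1 to 4. With values centred on group means r was 0.93 for Pon1 and 0.92 for Zhx2, and Alb, ranked 19, had 0.97. Plin1 ranked 130 and Adipoq 363.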

How the data were processed

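PolyA RNA of whole tissue was sequenced from NEBNext Ultra libraries, per the labels' protocols. The authors deposited raw counts as whole numbers, 1 row per gene symbol, for 10 libraries. Per the submitters' processing notes, Salmon 1.2.0, DESeq and the mm9 build were named, without their roles. The step from transcripts to gene counts is not described there. If Salmon estimates were rounded to give the table, its model divided the reads shared by near-identical Mup genes. Groups came from the labels. Separate animals are not stated outright for the libraries. Within groups, ages differ except between tumours 1 and 6 and among glands 1 to 3. Among libraries of the same age, the spread that the p-values cover may be technical. In 45 pairs of libraries chi-square over its degrees of freedom was never under 37.8, so no 2 libraries were copies.

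Counts of 20101 of 38279 genes (filterByExpr defaults) were scaled by TMM and tested with edgeR 4.0.16 (R 4.3.3) by the quasi-likelihood test, with Benjamini-Hochberg adjustment at 0.05. One fit had group alone and the other had group and adipocyte score. Standard errors are the log2 estimate divided by the square root of F. The correlation used log2(CPM + 0.5), with all 17280 orders within groups permuted. Both fits were tested on simulated data with planted changes of 2-fold, 4-fold and 8-fold. The group fit recovered 2 of 67, 18 of 67 and 53 of 66 of them, with 1 false call. The slope fit recovered 0 of 67, 21 of 67 and 52 of 66, with 0 false calls. A gene that is not called may therefore still differ. Changes were planted only in genes with higher counts, whose mean level was the same in all libraries before planting. For the slope the fold is the change at the library farthest from its group mean score, not per unit of score. The rates therefore do not give the recovery for genes near 0 in the tumours, such as the members. DESeq2 1.42.0 was an alternative, as were other scalings, pseudocounts, filters, adipocyte measures, sets of libraries and the sum over all Mup symbols.

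The members and lists were chosen with earlier results of these data known. Named genes were the members, the tested Mup genes, up to 3 called genes per list and direction by adjusted p, and the 10 genes most like the Mup sum, of which a part is named. Wilson intervals are at 95% and, like the limit of 3 counts for a 0, cover counting error only. Transcripts were those of GENCODE, and promoters those of RefSeq (GRCm38.p6). No other coordinates are given, since the counts are on another build.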

Additional observations from a re-analysis of the deposited data

Results flagged for a closer look

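Each library was set against the rest of its group for 24 genes or sums, on the log2(CPM + 0.5) scale, and 9 of 48 groups held a library far from the others by Dixon's criterion. The rate of about 1 in 20 by chance is no yardstick here, since the items include near-identical genes and sums of one another. For Mup19, Mup15 and Mup14 all other tumours had 0 counts, so any count in 1 tumour would be flagged. The 4 members and their sum gave no such library. Among the tumours, tumour 6 was far above the others for Mup19 (1.48, 2.29 CPM) and Mup15 (-0.17, 0.390 CPM), and tumour 2 was far above the others for Mup14 (0.40, 0.817 CPM), Mup1 (0.063, 0.545 CPM) and Mup20 (0.063, 0.545 CPM). All 5 rest on 82 counts or fewer. Among the glands, gland 4 was far above the others for Mup15 (2.64, 5.72 CPM), a gene with no 31-base window of its own. Gland 4 was far below the others for Mup3 (1.06, 1.59 CPM, against 3.91 to 4.36 in glands 1 to 3), for Zhx2 (1.48, 2.29 CPM, against 4.63 to 4.98) and for Orm1 (4.78, 26.9 CPM, against 7.34 to 7.67). Gland 4 is also the oldest gland and the one with the most mitochondrial and muscle transcripts, and their part in these values was not tested.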

How the results depend on the processing

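No paired analysis was possible because the replicate numbers were given in accession order and tie no tumour to a gland. The within-group correlation of the Mup sum with adipocyte score kept its direction and its side of the threshold in 18 of 22 alternatives. It was 0.78 in the 6 tumours alone, 0.87 without tumours 1 and 6 and -0.31 without gland 4 and tumours 1 and 6, none past the threshold, and 0.57 to 0.69 with 1 library left out, where it lost the threshold without gland 4. The cause was not tested.

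In the slope fit 323 genes had a positive and 12 a negative slope. These counts were 1059 and 369 with DESeq2, 0 and 0 without tumours 1 and 6, and 0 and 0 without these and gland 4 (1527 genes at an unadjusted p below 0.05, edgeR). The negative count was 6 without the filter. With 1 library left out they were 52 to 497 and 1 to 29. The slope changed sign for Mup16 with DESeq2 (-0.19), and for Mup22 without tumours 1 and 6 (2.41). Without gland 4 and tumours 1 and 6 it was -0.34 for Mup9, -2.71 for Mup16, -0.66 for Mup17 and -2.81 for Mup19. With 1 library left out it ran from -1.89 to 0.66 for Mup16 and from -1.07 to 0.19 for Mup22.

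Between tumours and glands 1384 genes were higher and 1646 lower. These counts were 2657 and 2595 with DESeq2 and 430 to 1737 and 623 to 1849 with 1 library left out, and 2826 were lower without gland 4 and tumours 1 and 6. Without the filter 15 of 29 other Mup genes were lower, against 5 of 7. The difference of Mup5 was -2.54 without tumours 1 and 6 and -2.98 without these and gland 4. RLE scaling moved no median over all genes by 0.1. Depth limits the tumour values, since the members' sum rests on 179 counts in 6 tumours.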
